A study of Mus with 96 samples.

Results

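Livers of Hep-Bmal1KO and Hep-Bmal1WT mice on normal chow were compared at Zeitgeber time (ZT) 14, 2 hours after lights off, when mice become active and feed. The 8 libraries were chosen by their titles, 4 for each genotype, out of 96 libraries in the series. Another 8 chow libraries from ZT02, 12 hours away, were used to find which differences at ZT14 were also seen early in the light phase. Each group held 2 males and 2 females, and every library came from a separate mouse.

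Hep-Bmal1KO mice carried the Alb-Cre transgene and Bmal1 flx/flx alleles, and Hep-Bmal1WT mice were littermates with the same Bmal1 flx/flx alleles and no Cre. All were on a C57BL/6J background, 8 to 10 weeks old at the start, kept in 12 hours of light per day, and fed chow for 2 weeks with free access. The albumin promoter drove Cre to delete Bmal1 in hepatocytes, and whether the other cells of the liver kept Bmal1 was not tested. The transgene cannot be told apart from the deletion because the controls did not carry it. The RNA was whole-liver RNA, in which fewer cells of a type and less RNA per cell cannot be told apart. Each genotype and ZT occupied wells of a single plate column, so the column cannot be told apart from the genotype.

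BMAL1 pairs with CLOCK, or with its relative NPAS2, and the pair binds E-box sequences to switch on the Period and Cryptochrome genes, whose proteins then repress the pair. It also drives the REV-ERB nuclear receptors, which repress Bmal1, Npas2, Cry1, and Clock, and the PAR bZIP factors DBP, TEF, and HLF, which carry the rhythm to metabolic genes. In liver, this network times glycogen storage, sterol and fatty acid metabolism, and detoxification to the daily cycle of feeding.

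At ZT14 the libraries held 5000934 to 8599309 counts on genes, and at ZT02 they held 1861740 to 7087447, where the lowest total belonged to a Hep-Bmal1WT female (replicate 3). Reads on mitochondrial genes took 7.1% to 8.61% of the counts in Hep-Bmal1WT and 5.19% to 7.25% in Hep-Bmal1KO at ZT14, and the part of this in the results was not tested. Sex-linked genes matched the labelled sex in 16 of 16 libraries. On a scale of 10 clock genes on which the median of the other Hep-Bmal1WT libraries is 0 and that of the other Hep-Bmal1KO libraries is 1, the ZT14 libraries stood at -0.258 to 0.331 and at 0.879 to 1.06. No chow library at ZT14 or ZT02 stood nearer the other genotype on these genes. On 20 other genes, those of smallest p for genotype at the other chow ZTs, both Hep-Bmal1WT females at ZT02 stood closer to Hep-Bmal1KO, at 0.594 and 0.508. The males of that group stood at -0.228 and -0.271. At ZT14 the Hep-Bmal1WT females stood at 0.394 and 0.427 and the males at -0.186 and -0.0874. Hep-Bmal1KO females stood above the males at ZT02 (1.18 and 1.12 against 0.683 and 0.845) and below them at ZT14 (0.776 and 0.766 against 0.84 and 0.816).

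Of 15548 genes tested, 774 differed between the genotypes at ZT14 (adjusted p under 0.05 in edgeR's quasi-likelihood test, referred to as called), which is 4.98% of the genes. There were 415 genes higher in Hep-Bmal1KO livers (2.67%) and 359 lower (2.31%), and 344 of the 774 changed by at least 1 on the log2 scale. The groups did not overlap for 603 of the called genes (77.9%), against 9.88% of all genes tested. The called genes were selected with the same libraries, so this comparison is a description. At ZT02, 229 genes were called (1.47%), and without a Hep-Bmal1WT male at ZT02 this count fell to 145 (replicate 1) or 139 (replicate 2). A fit without sex as a term called 438 genes at ZT14 and 81 at ZT02.

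The genes called at ZT14 fell into 4 classes by their behavior at ZT02. Of the 774, 147 were also called at ZT02 in the same direction (19%, with 71 higher and 76 lower), and 3 were called in the opposite direction. A further 60 genes (7.75%), 36 higher and 24 lower at ZT14, were not called at ZT02 and passed the test of the difference between the ZTs, so for these the effect of genotype differed 12 hours away. For the remaining 564 genes (72.9%), neither ZT02 nor the difference was called, and their absence from the ZT02 calls does not show that they were unaffected there. Their median log2 fold change at ZT02, taken in the direction of ZT14, was 0.27, against a median size of 0.79 at ZT14. In the 60 genes with a called difference, these medians were -0.01 at ZT02 and 1.39 at ZT14. By sign alone, 667 of the 774 genes (86.2%) had the same direction at both ZTs, against 57.9% of all genes tested. The genes called at both ZTs made up 19.4% of the ZT14 calls and 65.5% of the ZT02 calls.

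**Figure D1:**
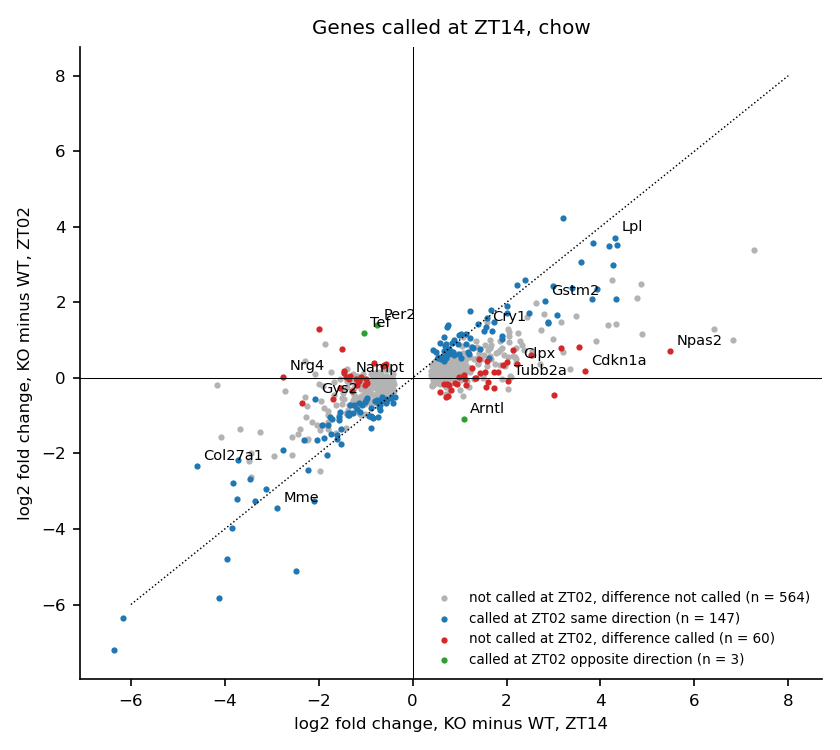
Log2 fold changes of Hep-Bmal1KO against Hep-Bmal1WT at ZT14 (horizontal axis) and at ZT02 (vertical axis) for the genes called at ZT14, 1 point per gene, colored by class; 16 genes with no count in a whole group are left out, and the dotted line marks equal values. Genes with a called difference (60, red) lie near the horizontal axis, and genes called at both ZTs in the same direction (147, blue) lie along the dotted line.

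The difference test itself called 75 genes (0.482% of those tested), 68 of them among the ZT14 calls. Without the sex term, 24 genes were called, and 9 were called when all 48 chow libraries entered the fit. The fit of 48 adds the other ZTs. They were kept out of the main fit by plan, on the ground that libraries there stand at the other genotype. No values for these libraries are given here. The part of these libraries in calls lost with 48 was not tested. Among the 68 genes, 40 were higher in Hep-Bmal1KO at ZT14, and 37 of these were lower at ZT14 than at ZT02 in Hep-Bmal1WT livers (adjusted p under 0.05), whereas in Hep-Bmal1KO livers 2 were lower and 3 higher at ZT14. Of the 28 lower genes, 22 were higher at ZT14 than at ZT02 in Hep-Bmal1WT livers, and 5 were lower at ZT14 in Hep-Bmal1KO livers. Over all genes tested, 2.25% changed between the ZTs in Hep-Bmal1WT and 1.11% in Hep-Bmal1KO livers. These counts use the same libraries as the selection and are given without a test.

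**Figure D2:**
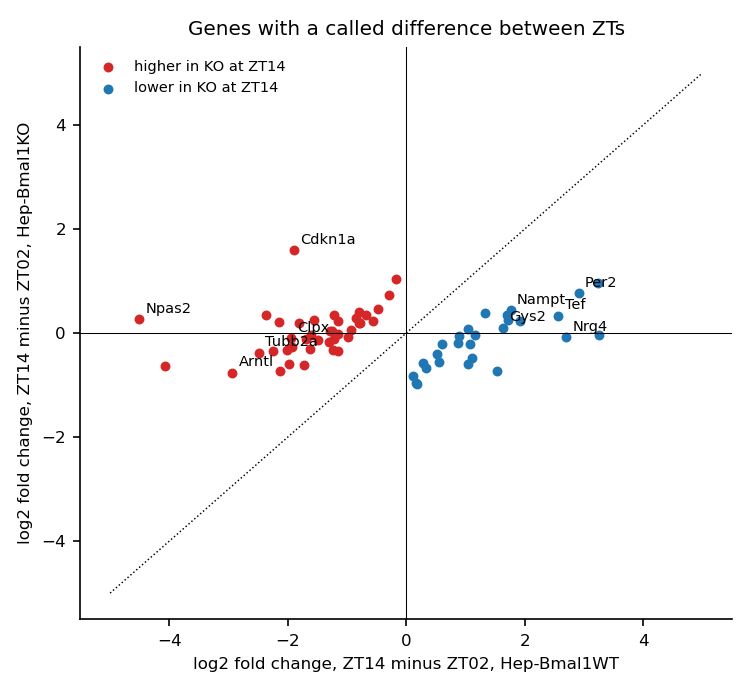
Change from ZT02 to ZT14 within Hep-Bmal1WT (horizontal axis) and within Hep-Bmal1KO (vertical axis), in log2, for the genes called both at ZT14 and for the difference between the ZTs (68 genes, of which Ppp1r3g, with no count in a group, is left out). Genes higher in Hep-Bmal1KO at ZT14 (red) lie mostly left of zero on the Hep-Bmal1WT axis and genes lower (blue) mostly right of it; the Hep-Bmal1KO change passed the test for 5 of the 40 higher and 5 of the 28 lower genes.

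All 3 clock activators were higher in Hep-Bmal1KO livers at ZT14, against 2.67% of all genes tested. Npas2, the alternative partner of BMAL1 (chromosome 1, 39193702 to 39363240, in GRCm38.p6), had 0, 0.368, 0.215 and 0.649 CPM (counts scaled to library size) in the Hep-Bmal1WT livers and 17.5, 12.7, 16.1 and 14.9 CPM in the Hep-Bmal1KO livers. The gene was nearly silent in every control at this time, with 7 reads in all 4 libraries against 415, and the groups were far apart. Its log2 fold change was 5.48 ± 0.49 (standard error, SE; adjusted p = 1.07e-08), a 44.7-fold difference that rests on few control reads. At ZT02, the controls had 6.29, 2.93, 19.5 and 7.48 CPM and the Hep-Bmal1KO livers 9.70, 15.1, 13.1 and 12.5 CPM, so the groups overlapped. The log2 fold change there was 0.70 (95% interval 0.04 to 1.37, adjusted p = 0.424), and the difference between the ZTs was 4.78 ± 0.63 (adjusted p = 8.57e-05). Npas2 fell from ZT02 to ZT14 in control livers (log2 change -4.51, adjusted p = 2.57e-06), and in Hep-Bmal1KO livers its change was 0.27 (adjusted p = 0.758).

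Clock, which encodes the usual partner of BMAL1, had 13.6, 10.3, 10.5 and 9.90 CPM in Hep-Bmal1WT and 22, 19.5, 15.1 and 17.4 CPM in Hep-Bmal1KO livers at ZT14, without overlap (log2 fold change 0.73 ± 0.18, adjusted p = 0.00656). At ZT02 its log2 fold change was -0.08 (-0.42 to 0.26), and the difference was not called (adjusted p = 0.209). Its ZT14 call was lost in males alone (0.78) and in females alone (0.68). Reads of the targeted gene Bmal1, listed as Arntl (chromosome 7, 113178471 to 113314126), were 0.983, 0.735, 2.58 and 4.87 CPM in Hep-Bmal1WT and 5.69, 3.92, 3.58 and 6.05 CPM in Hep-Bmal1KO livers. These groups overlapped, with the control males below the control females, and the log2 fold change of 1.09 ± 0.33 was barely called (adjusted p = 0.0479). The call was lost when any of 12 of the 16 libraries was left out, with log2 fold changes from 0.84 to 1.09, and in 5 of the other fits. It was kept without Hep-Bmal1WT ZT14 replicate 4, where the log2 fold change was 1.70. At ZT02, Arntl was lower in Hep-Bmal1KO livers, with 6.42, 6.69, 8.91 and 10.7 CPM against 16.3, 12.6, 17.9 and 21.9 CPM (log2 fold change -1.09 ± 0.27, adjusted p = 0.0215), and the difference between the ZTs was 2.18 ± 0.43 (adjusted p = 0.00519). BRB-seq reads the 3′ end of an mRNA, so reads outside the deleted part say nothing of whether the deletion took place.

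Of the 8 clock repressors tested, 3 were lower, 1 was higher, and 4 were not called at ZT14. Over all genes tested, 2.31% were lower and 2.67% higher. Cry1, a cryptochrome that REV-ERB represses, had 10.8, 7.72, 23.2 and 15.3 CPM in controls and 41.8, 34.5, 48.5 and 39.9 CPM in Hep-Bmal1KO livers, and all Hep-Bmal1KO values lay above all controls (log2 fold change 1.57 ± 0.20, adjusted p = 3.02e-07). It was also higher at ZT02 (1.34 ± 0.20, adjusted p = 3.74e-05), with a difference of 0.23 that was not called. With all 48 chow libraries in the fit, its ZT14 call was lost at a log2 fold change of 1.53. Among the Period genes, which the BMAL1 pair activates, Per3 and Per2 were lower at ZT14. Per3 had 13.2, 9.00, 11.4 and 13.5 CPM in controls at ZT14 and 1.57, 3.45, 2.01 and 4.73 CPM in Hep-Bmal1KO livers (log2 fold change -2.0 ± 0.41, adjusted p = 0.00185), whereas at ZT02 its log2 fold change was 1.29 (not called, 0.22 to 2.37), a difference of -3.30 ± 0.66 (adjusted p = 0.0118). Its ZT14 call was lost with all 48 chow libraries (-2.04).

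Per2 was called at both ZTs with opposite sign. At ZT14 it had 26.5, 24.3, 39.6 and 23.4 CPM in controls and 17.6, 15.2, 17.5 and 17.1 CPM in Hep-Bmal1KO livers, without overlap (log2 fold change -0.75 ± 0.20, adjusted p = 0.0169). At ZT02 the order turned, with 3.93, 4.40, 2.56 and 3.67 CPM in controls and 13, 12, 7.90 and 7.07 CPM in Hep-Bmal1KO livers (1.40 ± 0.25, adjusted p = 6.66e-04), and the difference was -2.14 ± 0.32 (adjusted p = 8.57e-05). The level in Hep-Bmal1KO livers thus lay between the low and the high level of the controls. The ZT14 call was lost without Hep-Bmal1WT replicate 3 (log2 fold change -0.50) or without Hep-Bmal1KO replicate 2 (-0.68), in males alone (-0.64), and with all 48 chow libraries (-0.75). Ciart, a repressor of the BMAL1 complex, was the most reduced of the list, with 11.2, 11.6, 4.95 and 3.41 CPM in controls and 0.196, 1.26, 0.335 and 0.443 CPM in Hep-Bmal1KO livers (-3.68 ± 0.61, adjusted p = 9.10e-05). At ZT02 it was between 0 and 1.03 CPM in all 8 livers. Per1, Cry2, and Bhlhe40 were not called at ZT14, with log2 fold changes of -0.34, 0.10, and -0.19, and Bhlhe41, also not called, was at 1.38 CPM or below in every library. Cry2 was called at ZT02 (1.05 ± 0.22, adjusted p = 0.00535), with a difference that was not called (adjusted p = 0.244).

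Among the REV-ERB receptors, Nr1d2 (REV-ERB beta) fell from 29.9, 24.3, 27.3 and 23.4 CPM in controls to 4.90, 5.33, 7.15 and 4.13 CPM in Hep-Bmal1KO livers at ZT14, 4.85-fold lower and without overlap (log2 fold change -2.28 ± 0.26, adjusted p = 3.65e-08). Its value at ZT02 was -1.03 (adjusted p = 0.0741), and the difference was not called. Nr1d1 (REV-ERB alpha), whose peak falls earlier in the day, had 17.5, 9.19, 6.02 and 8.27 CPM against 6.27, 3.29, 2.46 and 4.87 CPM, and its log2 fold change of -1.33 ± 0.59 was not called (adjusted p = 0.295). Rora, an activator at the same DNA elements, had a log2 fold change of 0.08 (adjusted p = 0.877).

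Of the 4 genes tested here, 2 PAR bZIP factors were lower at ZT14, against 2.31% of all genes tested. Tef had 98.3, 107, 86.7 and 93.3 CPM in controls and 41.4, 43.9, 52.7 and 48.4 CPM in Hep-Bmal1KO livers (log2 fold change -1.04 ± 0.15, adjusted p = 2.43e-06). At ZT02 it was higher in Hep-Bmal1KO, at 31, 42.5, 39.2 and 35.5 CPM against 12.6, 21.1, 15.4 and 15.5 CPM (1.19 ± 0.16, adjusted p = 5.05e-06), and its difference of -2.24 ± 0.22 had the smallest p of all genes tested (adjusted p = 1.13e-08). The groups did not overlap at either time, and the Hep-Bmal1KO levels of both times lay between the control levels. Dbp had 101, 104, 21.1 and 26.6 CPM in controls, high in the males and lower in the females, and 15.9, 14.6, 9.39 and 7.23 CPM in Hep-Bmal1KO livers (-2.29 ± 0.48, adjusted p = 0.0160). The Dbp call was lost without Hep-Bmal1KO replicate 1 (-2.34) or replicate 2 (-2.28). Hlf and Nfil3, which encodes a repressor at the same D-box elements, were not called (-0.32 and 0.61).

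**Figure D3:**
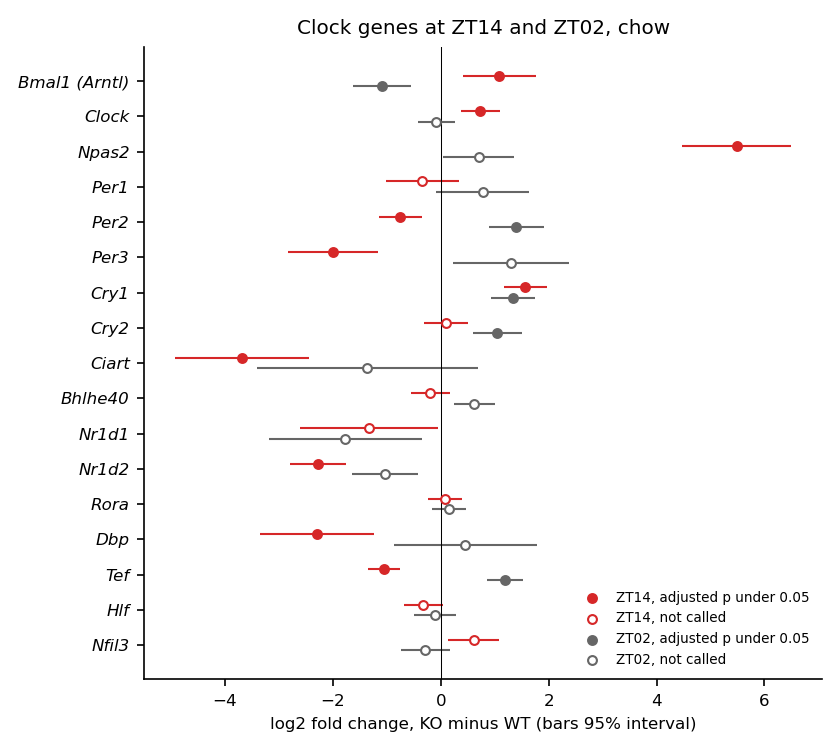
Log2 fold changes of Hep-Bmal1KO against Hep-Bmal1WT with 95% intervals for clock genes at ZT14 (red) and ZT02 (gray), filled where the adjusted p is under 0.05. At ZT14 the activators and Cry1 are higher and Per2, Per3, Ciart, Nr1d2, Dbp, and Tef lower. At ZT02 Per2, Tef, Cry1, and Cry2 are higher and Arntl is lower. Bhlhe41, with few reads, is not drawn.

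Most calls among genes known as clock outputs were in the lower direction in the early dark phase. Of 18 tested, 9 were lower and 1 higher at ZT14, with a median log2 fold change of -1.33 against 0.01 over all genes. Among all genes tested, 2.31% were lower and 2.67% higher. At ZT02, 1 was lower and none was higher, with a median of 0.00, and 7 had a called difference between the ZTs. Gys2, liver glycogen synthase (chromosome 6, 142422612 to 142473130), had 226, 181, 285 and 248 CPM in controls and 55.5, 56.3, 58.4 and 50.9 CPM in Hep-Bmal1KO livers, and the 4 Hep-Bmal1KO values were nearly equal and far below every control. The log2 fold change was -2.09 ± 0.15 (adjusted p = 7.06e-14), 4.25-fold lower. At ZT02, where controls had 77.9, 91.2, 70.7 and 64.8 CPM, it was -0.57 ± 0.14 (adjusted p = 0.0291), still called, with a difference of -1.52 ± 0.20 (adjusted p = 9.73e-06).

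Nampt, the rate-limiting enzyme of NAD salvage (chromosome 12, 32820335 to 32853369), had 108, 132, 192 and 192 CPM in controls and 48.4, 60.7, 66.2 and 66.1 CPM in Hep-Bmal1KO livers at ZT14 (log2 fold change -1.35 ± 0.15, adjusted p = 1.36e-08). At ZT02 both groups lay between 38.9 and 55.3 CPM, with a log2 fold change of -0.02 (-0.33 to 0.29), and the difference was called (-1.33 ± 0.21, adjusted p = 2.73e-04). Nrg4, a secreted ligand of the ERBB4 receptor, followed the same course. It had 15.5, 21.5, 13.8 and 12 CPM in controls and 1.18, 2.82, 2.24 and 2.81 CPM in Hep-Bmal1KO livers at ZT14 (-2.76 ± 0.32, adjusted p = 4.29e-08), and at ZT02 its log2 fold change was 0.03 (-0.73 to 0.80, difference -2.79 ± 0.50, adjusted p = 0.00108). Of the other outputs, chosen here after their values were seen, Rgs16 (-4.08), Por (-1.67), Noct (-1.56), Usp2 (-1.51), Upp2 (-1.43), and Coq10b (-1.32) were lower, and the difference was called for the last 3. Elovl3 was the single higher member (3.35 ± 0.83, adjusted p = 0.0423). It had 40.9, 73.3, 6.02 and 6.49 CPM in controls and 1808, 1354, 11.4 and 13.9 CPM in Hep-Bmal1KO livers. The groups overlapped, with low values in the females of both genotypes, while within each sex the Hep-Bmal1KO values lay above the controls.

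**Figure D4:**
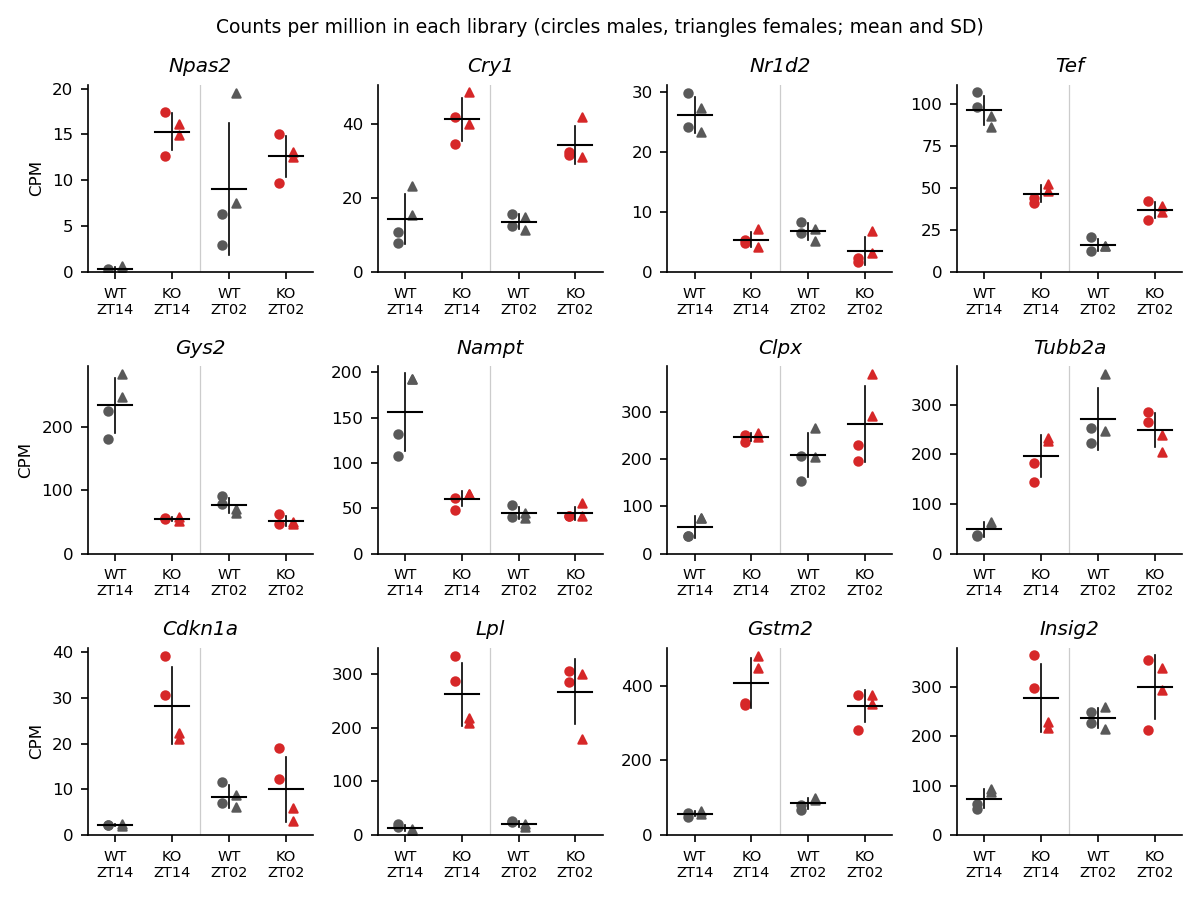
CPM of 12 genes in each chow library at ZT14 and ZT02, with circles for males, triangles for females, bars for the mean of 4 libraries, and vertical lines for the SD; gray is Hep-Bmal1WT and red Hep-Bmal1KO. The genotypes are apart at ZT14 in each of the 12 genes, whereas at ZT02 they overlap for Npas2, Nr1d2, Nampt, Clpx, Tubb2a, Cdkn1a, and Insig2.

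Several genes were higher in Hep-Bmal1KO livers at ZT14, were not called at ZT02, and passed the test of the difference between the times. Tubb2a, a beta tubulin (chromosome 13, 34074278 to 34078008), had 35, 36.9, 63.5 and 59.1 CPM in controls and 183, 143, 234 and 227 CPM in Hep-Bmal1KO livers, without overlap (log2 fold change 2.03 ± 0.17, adjusted p = 4.63e-10). At ZT02 the values were 253, 222, 361 and 247 CPM and 285, 265, 205 and 238 CPM, which overlapped (-0.09, -0.42 to 0.24). The difference of 2.12 ± 0.23 (adjusted p = 2.25e-06) came with a log2 change from ZT02 to ZT14 of -2.49 in control livers and -0.38 in Hep-Bmal1KO livers.

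Clpx, the unfoldase subunit of the mitochondrial ClpXP protease (chromosome 9, 65294251 to 65330658), had 37.2, 36.6, 76.4 and 75.8 CPM in controls, where the females were above the males, and 237, 253, 256 and 248 CPM in Hep-Bmal1KO livers at ZT14 (log2 fold change 2.22 ± 0.16, adjusted p = 2.49e-12). At ZT02 the log2 fold change was 0.37 (0.06 to 0.68, adjusted p = 0.326), and the difference was 1.85 ± 0.22 (adjusted p = 3.69e-06). Cdkn1a, which encodes the cell cycle inhibitor p21 (chromosome 17, 29090979 to 29100722), had 2.16, 2.21, 2.37 and 1.95 CPM in controls and 39.2, 30.6, 22.4 and 21 CPM in Hep-Bmal1KO livers, 12.8-fold higher (3.68 ± 0.31, adjusted p = 1.60e-10). At ZT02 the groups overlapped, with 7.08, 11.7, 8.71 and 6.16 CPM and 12.2, 19, 5.88 and 2.96 CPM (0.18, -0.38 to 0.75). It fell from ZT02 to ZT14 in controls (-1.90, adjusted p = 4.40e-04) and rose in Hep-Bmal1KO livers (1.60, adjusted p = 4.58e-04).

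Mad2l2, a subunit of the DNA polymerase zeta complex, had 14.9, 12.9, 12.7 and 14.6 CPM in controls and 54.5, 53.3, 57.2 and 55.8 CPM in Hep-Bmal1KO livers (2.0 ± 0.15, adjusted p = 9.55e-13), with 0.42 (0.12 to 0.72) at ZT02 and a difference of 1.58 ± 0.21 (adjusted p = 9.73e-06). Spon2, a secreted matrix protein, had 2.36, 3.12, 3.01 and 2.11 CPM and 18.2, 23.7, 28.1 and 21.7 CPM (3.15 ± 0.27, adjusted p = 1.45e-11), with 0.78 (0.32 to 1.25) at ZT02 and a difference of 2.36 ± 0.35 (adjusted p = 8.57e-05). In both genes all Hep-Bmal1KO values at ZT14 lay well above all controls. Insig2, which holds the sterol sensor SCAP in the endoplasmic reticulum, had 62.1, 52.4, 92.7 and 87.1 CPM in controls and 364, 299, 228 and 218 CPM in Hep-Bmal1KO livers (1.92 ± 0.20, adjusted p = 2.66e-06). It was not called at ZT02 (0.34, -0.07 to 0.74), and the difference was 1.59 ± 0.28 (adjusted p = 0.00822).

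In the lower direction, Pdxk, the kinase that makes pyridoxal phosphate, had 56.4, 47.4, 44.3 and 38.6 CPM in controls and 15.5, 13.5, 19 and 15.5 CPM in Hep-Bmal1KO livers at ZT14 (log2 fold change -1.55 ± 0.17, adjusted p = 1.34e-08). Its ZT02 value was -0.26 (-0.61 to 0.10), with a difference of -1.29 ± 0.24 (adjusted p = 0.00287). Rapgef4, a cAMP-responsive exchange factor, was lower at ZT14 (log2 fold change -1.19 ± 0.15, adjusted p = 2.57e-07), as were Fam102a (-1.46 ± 0.19, adjusted p = 4.09e-07) and Gpat4, an acyltransferase of glycerolipid synthesis (-0.56 ± 0.13, adjusted p = 0.00431). At ZT02 their log2 fold changes were -0.18, 0.13, and 0.36, none called, and the differences were -1.01, -1.59, and -0.92 (adjusted p = 0.00889, 5.96e-04, and 0.00653). The groups of these 3 genes did not overlap at ZT14. For Gpat4 the call was lost in males alone (-0.49).

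Among the genes of smallest p were several called in the same direction 12 hours away. Lpl, the lipase that takes up fatty acids from circulating triglycerides and is low in adult hepatocytes (chromosome 8, 68880555 to 68906932), had 21.2, 14.9, 11.2 and 6.98 CPM in controls and 288, 334, 219 and 209 CPM in Hep-Bmal1KO livers at ZT14. Every Hep-Bmal1KO value exceeded every control by a wide margin, 19.8-fold on average (log2 fold change 4.31 ± 0.19, adjusted p = 2.97e-18). At ZT02 it was 3.71 ± 0.18 (adjusted p = 2.96e-16), and the difference of 0.60 was not called (adjusted p = 0.509). Atp11a, a phospholipid flippase, had 3.34, 2.57, 4.52 and 2.60 CPM in controls and 18.2, 18.4, 16 and 15.8 CPM in Hep-Bmal1KO livers at ZT14, again without overlap. Its log2 fold change was 2.40 ± 0.25 at ZT14 and 2.61 ± 0.25 at ZT02 (adjusted p = 3.26e-09 and 1.64e-09). Mme, the membrane peptidase neprilysin, had 21.6, 29.6, 37.6 and 33.7 CPM in controls and 3.53, 1.73, 5.03 and 6.35 CPM in Hep-Bmal1KO livers at ZT14 (-2.89 ± 0.26, adjusted p = 1.65e-09), and its ZT02 value was -3.44 ± 0.28 (adjusted p = 6.67e-10).

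Gstm2, a glutathione S-transferase of the mu class (chromosome 3, 107981702 to 107986420), had the smallest p at ZT14, with 60.3, 47.6, 57 and 63.3 CPM in controls and 348, 354, 481 and 448 CPM in Hep-Bmal1KO livers (2.83 ± 0.14, adjusted p = 3.59e-19). It was also higher at ZT02 (2.04 ± 0.13, adjusted p = 9.98e-15), and the effect at ZT14 was larger by 0.79 (adjusted p = 0.0278). Gstm6 of the same class was higher by 1.91 ± 0.15 (adjusted p = 8.94e-13) and by 1.11 ± 0.14 at ZT02. Mu-class genes are close in sequence, and reads could have been split among them. Ndrg1, a stress-responsive gene, was 7.36-fold higher at ZT14, with 3.15, 3.86, 5.81 and 5.19 CPM in controls and 24.1, 28.7, 40.5 and 37.2 CPM in Hep-Bmal1KO livers (2.88 ± 0.21, adjusted p = 2.83e-13), and its effect was larger than at ZT02 by 1.40 (adjusted p = 0.00589). Coq8a, which acts in coenzyme Q synthesis, was higher by 1.64 ± 0.14 at ZT14 and by 0.52 ± 0.14 at ZT02 (adjusted p = 4.10e-11 and 0.0421), again with a called difference (adjusted p = 0.00108).

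Col27a1, a fibrillar collagen gene, was 24.2-fold lower at ZT14, with 35, 17.6, 8.82 and 13.3 CPM in controls and 0.980, 1.10, 0.559 and 0.295 CPM in Hep-Bmal1KO livers (log2 fold change -4.60 ± 0.36, adjusted p = 9.55e-13). It was lower at ZT02 too (-2.34 ± 0.36, adjusted p = 4.50e-05), by less (difference -2.26, adjusted p = 0.0369). St3gal5, the synthase of the ganglioside GM3, was lower at ZT14 (-1.72 ± 0.15, adjusted p = 1.99e-11), as were Abhd6, a monoacylglycerol lipase (-1.54 ± 0.14, adjusted p = 2.81e-10), and As3mt, the arsenite methyltransferase (-1.56 ± 0.17, adjusted p = 7.63e-09). All 3 were also lower at ZT02, and their differences were not called. Nat8, an acetyltransferase expressed mainly in the males, had 27.7, 32.7, 0.860 and 0.162 CPM in controls and 0.980, 2.35, 0.112 and 0.295 CPM in Hep-Bmal1KO livers (-3.75 ± 0.42, adjusted p = 1.86e-08). The groups overlapped, with low values in the females of both genotypes, and the call was lost in females alone (-1.22) and without the sex term (-4.10).

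Albumin mRNA was lower in Hep-Bmal1KO livers at both times. Alb (chromosome 5, 90460870 to 90476602) had 83520, 75650, 125100 and 120300 CPM in controls and 27180, 30600, 60110 and 58450 CPM in Hep-Bmal1KO livers at ZT14 (-1.24 ± 0.12, adjusted p = 1.19e-09), and the ZT02 value was -0.73 ± 0.12 (adjusted p = 1.98e-04). The groups did not overlap at ZT14, and the call was lost without the sex term (-1.20). Its promoter also drives Cre in the Hep-Bmal1KO mice, which cannot be told apart from the deletion. Of 8 hepatocyte markers tested, 3 were lower, Alb, Hnf4a (-0.55), and Cyp2e1 (-0.44), and 5, among them Ttr (0.04) and Apoa1 (0.07), were not called. Among all genes tested, 2.31% were lower and 2.67% higher at ZT14. The summed level of the hepatocyte markers was 132100 to 186400 CPM in controls and 90910 to 121100 CPM in Hep-Bmal1KO livers, and Alb carried this difference. Without Alb the sum was 50620 to 61240 CPM in controls and 60300 to 67390 CPM in Hep-Bmal1KO livers, and over the 8 markers the median log2 fold change was 0.05, with 5 of 8 positive. The summed level of 6 cholangiocyte markers was 27.96 to 54.8 CPM in controls and 67.2 to 90.8 CPM in Hep-Bmal1KO livers, and of 5 tested 1 was called, Sox9 (1.78 ± 0.34, adjusted p = 0.00335), while Krt7 and Epcam stayed below 3 CPM on average in both genotypes and 1 of the 6 had no read in controls. Exocrine pancreas markers summed to 15.1 to 25.2 CPM and to 23.1 to 116.6 CPM, with Prss2, Cpa1, and Pnlip below 0.2 CPM on average and none of 4 called. No marker of macrophages, endothelium, stellate cells, leukocytes, or red blood cells was called, and their sums overlapped. The part of any of these cells in the results was not tested.

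The calls among genes of cholesterol synthesis were all in the higher direction, at both times. Of 20 enzymes tested, 8 were higher and none lower at ZT14, 19 of 20 had a positive log2 fold change, and the median was 0.66 against 0.01 over all genes. The shares called over all genes tested were 2.67% higher and 2.31% lower. At ZT02, 11 were higher with a median of 0.87, 7 were called at both times, and no difference between the times was called. Hmgcs1, the synthase at the start of the mevalonate pathway, had 185, 142, 149 and 182 CPM in controls and 369.9, 513, 521 and 509 CPM in Hep-Bmal1KO livers at ZT14 (1.52 ± 0.22, adjusted p = 3.41e-04). Fdps, which makes farnesyl diphosphate, had 186, 182, 203 and 233 CPM and 309.5, 368, 327 and 309.5 CPM (0.72 ± 0.13, adjusted p = 1.64e-04), and Tm7sf2, a sterol reductase, had 92.8, 100.1, 123 and 137 CPM and 170.2, 177, 190.1 and 173 CPM (0.67 ± 0.12, adjusted p = 2.69e-04). The groups of all 3 genes were apart, by less than 3-fold on average. In females alone the calls of Fdps (0.55) and Tm7sf2 (0.49) were lost. Insig2, described above, was the only called gene of higher level among 12 genes of sterol sensing and uptake, where 1 other was lower. Of 19 genes of sterol efflux and bile acids only Scarb1, the high-density lipoprotein receptor, was called (0.49 ± 0.15, adjusted p = 0.0364). That count is near the share of all genes tested that were called (4.98%). The Scarb1 call was lost when any of 5 libraries was left out, without the sex term (0.49), with all 48 chow libraries (0.49), and in females alone (0.36).

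Most calls among genes of fatty acid synthesis were in the lower direction at ZT14. Of 17 genes of de novo lipogenesis and the sugar-responsive factor CHREBP, 6 were lower and 1 higher (median -0.50), while at ZT02 2 were lower and 2 higher (median 0.01). Among all genes tested, 2.31% were lower and 2.67% higher at ZT14. Elovl6, which elongates palmitate, had 189.7, 153, 207 and 184 CPM in controls and 58.8, 76.5, 60.8 and 68.5 CPM in Hep-Bmal1KO livers at ZT14 (-1.45 ± 0.24, adjusted p = 0.00154). At ZT02 its groups overlapped (0.19, -0.32 to 0.70), with a difference of -1.64 ± 0.34 (adjusted p = 0.0486). Pklr, the liver pyruvate kinase, was lower at both times (-0.68 and -0.62, adjusted p = 0.00241 and 0.0225), though its ZT14 call was lost in males alone (-0.62) and with all 48 chow libraries (-0.68). The higher gene was Elovl5, an elongase of polyunsaturated fatty acids (0.73 ± 0.14, adjusted p = 5.35e-04), whose call was lost in males alone (0.55).

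Of 19 genes of glucose output, uptake, and glycogen, 4 were lower and 1 higher at ZT14, against 2.31% and 2.67% of all genes tested. Slc2a2, the hepatic glucose transporter GLUT2, had 222, 253, 266 and 249.7 CPM in controls and 104, 107, 105 and 116 CPM in Hep-Bmal1KO livers, which did not overlap (-1.20 ± 0.16, adjusted p = 3.55e-06). The ZT02 value was -0.51 (-0.84 to -0.18), and the difference was not called. Ppp1r3g, a subunit that targets protein phosphatase 1 to glycogen, had 1.38, 0.919, 9.03 and 1.46 CPM in controls and no read in any Hep-Bmal1KO liver at ZT14. Against a floor of 3 counts over the group, it was at least 24.9-fold lower (adjusted p = 2.62e-04), and the difference between the ZTs was called (adjusted p = 0.0193), though on 63 control reads of which most came from replicate 3. Its call was lost in males alone. The single higher member, Ppp1r3c, another glycogen-targeting subunit, had 19.7, 15.3, 27.1 and 27.1 CPM in controls and 104, 37.3, 115 and 111 CPM in Hep-Bmal1KO livers (2.04 ± 0.46, adjusted p = 0.0249).

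In fatty acid oxidation and among targets of PPAR alpha, 4 of 22 genes were lower and none higher, with a median of -0.31, and at ZT02 2 were lower (median -0.38). The shares over all genes tested were 2.31% lower and 2.67% higher at ZT14. Cpt1a, which admits long-chain fatty acids to the mitochondria, had 186, 171, 166 and 173 CPM in controls and 119.8, 78.9, 110.4 and 122 CPM in Hep-Bmal1KO livers (-0.70 ± 0.13, adjusted p = 3.54e-04), and its ZT02 value was -0.02 (-0.29 to 0.24) with a difference that was not called (adjusted p = 0.120). In females alone the Cpt1a call was lost (-0.54). Ppara itself was lower (-0.86 ± 0.24, adjusted p = 0.0229), a call lost when any of 6 libraries was left out (-0.67 to -0.88). The Ppara call was also lost without the sex term (-0.84), with all 48 chow libraries (-0.88), and in females alone (-0.46). Of 18 genes of triglyceride synthesis and lipid droplets, 2 were higher, Lpl and Agpat2, and 2 lower, the phosphatidate phosphatase gene Lpin2 (-1.09 ± 0.23, adjusted p = 0.00839) and the lipase gene Mgll (-0.73 ± 0.14, adjusted p = 6.21e-04). The Lpin2 call was lost without the sex term (-1.06).

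Detoxification genes moved in both directions. Of 25 tested, 4 were higher and 7 lower at ZT14, and 8 of these 11 were called in the same direction at ZT02. Among all genes tested, 2.67% were higher and 2.31% lower at ZT14. Cyp2a5, a cytochrome P450 with near copies in the genome, had 2183, 2730, 1530 and 1311 CPM in controls and 119, 179, 135 and 138 CPM in Hep-Bmal1KO livers, 13.1-fold lower (-3.71 ± 0.39, adjusted p = 9.55e-05). It was lower at ZT02 as well (-2.16 ± 0.36, adjusted p = 0.0119), and in males alone the ZT14 call was lost (-4.06). Cyp2c29, another P450, had 511, 555, 633 and 521 CPM in controls and 1112, 1346, 1184 and 1217 CPM in Hep-Bmal1KO livers (1.13 ± 0.13, adjusted p = 1.86e-08) and was higher at ZT02 too (0.90 ± 0.13, adjusted p = 8.85e-06). The remaining 3 higher genes were the mu-class transferases Gstm1, Gstm2, and Gstm3.

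Of 22 genes of amino acid breakdown and the urea cycle, 6 were higher and 1 lower at ZT14, against 2.67% and 2.31% of all genes tested. Oat, ornithine aminotransferase, had 564, 615, 616 and 434 CPM in controls and 1232, 1496, 1257 and 1241 CPM in Hep-Bmal1KO livers (1.23 ± 0.14, adjusted p = 6.01e-08), and the ZT02 effect was 1.05 ± 0.14 (adjusted p = 5.77e-06). Consecutive enzymes of the urea cycle moved apart. Ass1, which makes argininosuccinate, had 1368, 1653, 1560 and 1818 CPM in controls and 2646, 2897, 2979 and 2590 CPM in Hep-Bmal1KO livers (0.80 ± 0.12, adjusted p = 1.40e-05), whereas Asl, which cleaves it, had 452, 365, 452 and 461 CPM and 229, 251, 243 and 284 CPM (-0.78 ± 0.13, adjusted p = 7.74e-05). Neither pair of groups overlapped, neither gene was called at ZT02 (0.44 and -0.14), and neither difference was called.

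Among 15 heat shock and cold-inducible genes 1 was lower, Hspb1 (-1.97 ± 0.41, adjusted p = 0.0158), a call lost without Hep-Bmal1KO replicate 2 (-1.95) or replicate 3 (-1.86). Among 18 genes of the unfolded protein response 1 was lower, Dnajc3 (-0.53). Its call was lost when any of 4 libraries was left out, without the sex term (-0.53), and in males alone (-0.29). Over all genes tested, 4.98% were called. Of 14 glucocorticoid-responsive genes, 3 were called, of which 1 was higher, Cdkn1a, and 2 were lower, Fkbp5, a cochaperone of the receptor (-1.34 ± 0.21, adjusted p = 5.73e-05), and Nfkbia (-0.81 ± 0.18, adjusted p = 0.00324). Both of the latter lost their call without the sex term (-1.37 and -0.80). Fkbp5 had 51.3, 34.9, 94.4 and 91.7 CPM in controls and 20.4, 16.9, 34.8 and 32.9 CPM in Hep-Bmal1KO livers, and its difference from ZT02 was -1.23 ± 0.30 (adjusted p = 0.0704). Of 25 ribosome biogenesis genes 2 were higher, Nhp2 (0.57) and Npm1 (0.49), the latter lost when any of 9 libraries was left out. Both calls were also lost without the sex term and in each sex alone. Nop58, Atf6, Hsp90b1, Cirbp, Rbm3, Rrm2, Scap, Cyp7b1, and Nr1h4 were not called. Among 20 cell cycle genes 1 was called, Cdkn1a, and Wee1, a kinase under clock control, missed the threshold at ZT14 (-0.85 ± 0.27, adjusted p = 0.0579) with a called difference from ZT02 (-1.88 ± 0.43, adjusted p = 0.0271).

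**Figure D5:**
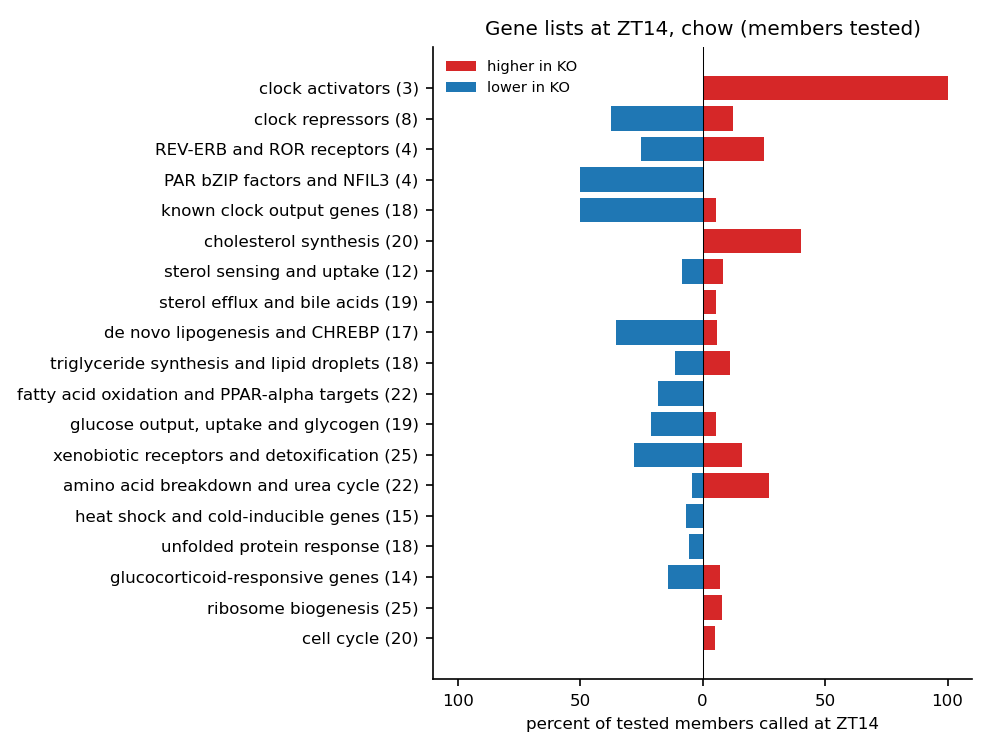
Percent of the tested members of 19 gene lists called higher (red, to the right) or lower (blue, to the left) in Hep-Bmal1KO livers at ZT14, with the number of members tested in parentheses. Over all genes tested the shares are 2.67% higher and 2.31% lower; cholesterol synthesis has calls to the right only and known clock outputs mainly to the left.

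The same contrast was made in other mice at ZT14 after 2 weeks of a choline-deficient high-fat diet (cdHFD), 4 for each genotype, of which 3 males and 1 female were Hep-Bmal1WT and 2 males and 2 females Hep-Bmal1KO. No gene was called there by edgeR (0% of the genes tested) or by DESeq2, and 468 genes had an unadjusted p under 0.05 in edgeR. Of these 8 libraries, the library labelled Hep-Bmal1WT replicate 1 stood at 0.996 on the clock scale and the library labelled Hep-Bmal1KO replicate 1 at -0.0448, each nearer the other genotype. Both were males. Without them, at 2 males and 1 female against 1 male and 2 females, 78 genes were called. Of these, 49 were called on chow in the same direction (6.33% of the 774 and 62.8% of the 78). Since the pair was set aside for its clock genes, this count is a description. On the 20 other genes the pair stood at 0.689 and -0.473. The Hep-Bmal1WT female (replicate 4), kept in that fit, stood at 0.974 there, also nearer Hep-Bmal1KO. Of the 774 genes called on chow, 545 had the same sign on cdHFD (70.4%, against 55.1% of all genes), and 624 (80.6%, against 57.1%) without the pair. The effect of genotype differed between the diets for 155 genes (0.997%), 145 of them called on chow, a test that shares the chow libraries with the selection. This count was 266 with DESeq2 (237 called on chow), 102 without the sex term (98), and 135 without the pair of libraries (115). Of the 63 genes called on chow and picked by the naming rule, 37 had the same sign on cdHFD and 28 had a called difference between the diets. These 2 counts are from the fit that kept the pair, and they are not given without it.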

How the data were processed

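BRB-seq, which tags the 3′ ends of mRNA, was run on whole-liver RNA. The authors aligned reads with STAR to mm10 and deposited raw read counts per gene; the processing notes name HTSeq and featureCounts, which counting step made this table and whether molecular identifiers were collapsed being not given in the sources used here. Rows that name no gene were left out of all totals (reads not aligned were 15.5% to 29.4% at ZT14). Here, edgeR 4.0.16 (R 4.3.3; TMM scaling, robust quasi-likelihood F test, Benjamini-Hochberg adjustment over 15548 of 55487 genes with at least 100 counts summed over 96 libraries) was fitted to the 16 chow libraries at ZT02 and ZT14 with a mean per genotype and ZT plus sex, leaving 11 residual degrees of freedom. Adjusted p-values in the text are from this test unless another is named. SEs are of the log2 fold change, intervals are 95%, and CPM follow TMM scaling. CPM are listed for the males first, then the females. No 2 libraries of a group agreed within sampling noise (chi-square per degree of freedom of at least 4.30 at ZT14 in the controls). The scripts were tested on simulated counts.

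Genes were named by rule: the 8 of smallest p per direction with a log2 fold change of at least 1; the 6 per direction of smallest p for the difference among those not called at ZT02; up to 4 called at both ZTs with opposite sign; the 3 per direction called most firmly at both; all clock list members; and the 3 of smallest p in every other list. Other list members named were chosen after their values were seen. Members and lists were chosen with earlier results of these data known. A few genes that the rule names are not reported here. Positions are from RefSeq GRCm38.p6, matched by symbol or synonym (761 of the 774 genes). Depth and counting limits cover counting error only. Alternatives were DESeq2 1.42.0, its size factors, other filters, no sex term, other sets of libraries, each sex alone, and each library left out.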

Additional observations from a re-analysis of the deposited data

Results flagged for a closer look

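The 126 groups of 4 libraries include Ppp1r3g in Hep-Bmal1KO at ZT14, which had no read and was passed over. The groups share the same libraries, so they are not independent. In 5 of them, 1 library stood apart from the other 3 by Dixon's criterion, and chance gives about 1 in 20 for a single group. These were Asl in Hep-Bmal1WT replicate 2 at ZT14 (365 CPM, the lowest), Ppp1r3g in Hep-Bmal1WT replicate 3 at ZT14 (9.03 CPM, the highest), St3gal5 in Hep-Bmal1KO replicate 2 at ZT14 (57.9 CPM), Oat in Hep-Bmal1KO replicate 2 at ZT14 (1500 CPM), and Hmgcs1 in Hep-Bmal1KO replicate 1 at ZT14 (370 CPM, the lowest).

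The effect of genotype differed between ZT14 and ZT02 for 25 of the 81 genes picked by the naming rule (adjusted p under 0.05 for the difference in edgeR). For genes higher at ZT14, the ZT14 log2 fold change exceeded that at ZT02 by 4.78 for Npas2, 3.5 for Cdkn1a, 2.36 for Spon2, 2.18 for Arntl, 2.12 for Tubb2a, 1.85 for Clpx, 1.59 for Insig2, 1.58 for Mad2l2, 1.4 for Ndrg1, 1.12 for Coq8a, and 0.789 for Gstm2. In the lower direction the difference was -3.3 for Per3, -2.79 for Nrg4, -2.26 for Col27a1, -2.24 for Tef, -2.14 for Per2, -1.88 for Wee1, -1.64 for Elovl6, -1.59 for Fam102a, -1.52 for Gys2, -1.33 for Nampt, -1.29 for Pdxk, -1.01 for Rapgef4, and -0.921 for Gpat4. Ppp1r3g, with no read in Hep-Bmal1KO livers at ZT14, had an adjusted p of 0.0193 for the difference.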

How the results depend on the processing

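No paired analysis was possible because replicate numbers were given in accession order and pair no mice. The promoter motif search was not run, since no promoter sequence was at hand. The 774 genes called at ZT14 kept their direction in every fit that tested them, except 4 in males alone and 3 in females alone, and of the 774, 748 were also called by DESeq2, 628 with all 48 chow libraries, 437 without the sex term, 496 in males alone, and 381 in females alone. Counts are given in the order ZT14, ZT02, difference, and then the 4 classes. DESeq2 gave 124 differences, of which 99 genes were not called at ZT02. With no filter beyond 1 count there were 497 calls at ZT02, 209 differences, and classes of 295 (same direction), 10 (opposite), and 132 (difference called). Without the sex term there were 438, 81, and 24 calls, and classes of 57, 22 (difference called), and 357 (neither called). With all 48 chow libraries there were 85 calls at ZT02, 9 differences, and classes of 39, 1 (opposite), and 6 (difference called). That fit includes the ZTs kept out of the main fit by plan, on a ground for which no values are given here. The 8 libraries of ZT14 alone gave 1202 calls. Males alone gave 113 differences and 5 genes of opposite direction, and females alone 126, 8, and 350 (neither called). The cause was not tested. Leaving out 1 library gave 557 to 875 calls at ZT14 (lowest without Hep-Bmal1KO ZT14 replicate 1), 139 to 267 at ZT02, 51 to 73 differences, and classes of 101 to 152, 1 to 3 (1 without Hep-Bmal1WT ZT14 replicate 3 or Hep-Bmal1KO ZT14 replicate 2), 40 to 59 (40 without Hep-Bmal1KO ZT14 replicate 1), and 386 to 687. The log2 fold change of Rora was -0.16 in males alone and -0.028 to 0.25 with 1 library left out (-0.0062 without Hep-Bmal1WT ZT14 replicate 4), and that of Cry2 was -0.29 in females alone and -0.036 to 0.20. On cdHFD, 78 genes were called without the pair of libraries nearer the other genotype, an alternative chosen after seeing the data. Depth limits genes with few reads, such as Npas2, Ppp1r3g, and Ciart.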

Other observations

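Genes outside the lists and the naming rule also passed the test of the difference between ZT14 and ZT02, and those named here were chosen after their values were seen. Cbs, which commits homocysteine to cysteine synthesis, was higher in Hep-Bmal1KO livers at ZT14 (log2 fold change 1.41, adjusted p = 6.82e-08) and not called at ZT02 (0.51). Mat1a, the liver synthase of S-adenosylmethionine, was not called at ZT14 (-0.20) and was higher at ZT02 (0.65, adjusted p = 0.00682). The differences were 0.91 and -0.85.

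Of other genes, Leap2, a secreted antagonist of the ghrelin receptor, was higher at ZT14 (1.43, adjusted p = 1.99e-09), as were the stress-responsive transcription factor gene Atf5 (1.55, adjusted p = 5.29e-09) and the manganese exporter gene Slc30a10 (1.13, adjusted p = 2.98e-06), and none of the 3 was called at ZT02 (0.13, 0.16, and -0.19). Lower at ZT14 and not called at ZT02 were Uox, urate oxidase (-1.01, adjusted p = 9.74e-08), Adh1, alcohol dehydrogenase (-0.98, adjusted p = 1.22e-06), and Esr1, the estrogen receptor alpha (-1.20, adjusted p = 3.49e-05). Their ZT02 values were -0.20, -0.12, and -0.03. Acaca, the acetyl-CoA carboxylase of lipogenesis, was not called at ZT14 (-0.45, adjusted p = 0.0944) and was higher at ZT02 (0.59, adjusted p = 0.0417), with a difference of -1.04 (adjusted p = 0.0124). All p-values are from edgeR's quasi-likelihood test over 15548 genes.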
